A study of Mus musculus with 2 samples.

Results

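Leukocyte microRNAs are short silencing RNAs made mainly in white blood cells, and 7 of their genes were followed here in calf muscle. The genes were Mir142, Mir223, Mir150, Mir155, Mir342, Mir146b and Mir146, the last being the gene of miR-146a. They were taken by their GENCODE M21 symbols, matched by Ensembl identifier, and all 7 were among the 2202 microRNA genes counted. Small RNA libraries with inserts below 30 nt were made from the gastrocnemius, a calf muscle, of male B6CASTF1/J mice, an F1 hybrid strain, at 2 months of age. There are 2 libraries of 1 group, numbered as biological replicates, and each is labelled with a different male under a shared donor identifier. No treatment, mutation or second tissue was compared, so the data show how abundant these genes were in whole muscle and how far the 2 libraries differed. Whether blood was flushed from the muscle is not given in the sources used here.

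MicroRNA genes are transcribed as hairpins, from which a mature strand of each arm can be cut and loaded onto an Argonaute protein. The seed, bases 2 to 8 of the mature strand, sets most of the choice of messenger RNA targets. Mir142 is active across blood cell lineages, Mir223 in granulocytes and monocytes, and Mir150 in mature B and T lymphocytes. Mir155 and Mir146 are switched on when lymphocytes and macrophages are activated, and both are also made by endothelial cells. Whole muscle contains blood vessels with their blood, resident macrophages, endothelium and connective tissue beside the muscle fibres.

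The mature sequences show which of the arms below have the same seed and how long a run they share with other genes. RefSeq sequences on GRCm38.p6 were found for 13 arms of the 7 genes, 21 to 23 bases long, and they are written 5′ to 3′ with the seed in capitals.
mmu-miR-142a-5p: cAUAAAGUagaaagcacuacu
mmu-miR-142a-3p: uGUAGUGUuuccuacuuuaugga
mmu-miR-223-5p: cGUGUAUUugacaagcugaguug
mmu-miR-223-3p: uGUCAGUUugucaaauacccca
mmu-miR-150-3p: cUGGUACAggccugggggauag
mmu-miR-342-5p: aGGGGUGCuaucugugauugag
mmu-miR-342-3p: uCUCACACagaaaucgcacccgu
mmu-miR-155-5p: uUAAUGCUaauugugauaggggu
mmu-miR-155-3p: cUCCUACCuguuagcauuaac
mmu-miR-146a-5p: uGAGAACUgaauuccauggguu
mmu-miR-146a-3p: cCUGUGAAauucaguucuucag
mmu-miR-146b-5p: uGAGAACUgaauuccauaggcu
mmu-miR-146b-3p: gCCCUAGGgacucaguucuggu

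These 13 arms carried 12 different seeds. The only pair with a common seed was miR-146a-5p and miR-146b-5p, and among the 1738 mature mouse sequences of the RefSeq table no further arm had any of the 12 seeds. The 5p arms of miR-146a and miR-146b differed at 2 of 22 positions, counted from the 5′ end, by the substitutions G18A and U21C (the miR-146a base first). Their longest identical run was 17 bases, whereas the 3p arms differed at 18 positions. Against the hairpins of all other genes in the table, none of the arms shown for the other 5 genes shared a run longer than 13 bases, the length that miR-142a-5p shared with Mir3964. For Mir150 this holds for miR-150-3p alone, and miR-150-5p was not analysed here. The counts are per gene and join both arms, so they do not show which arm was present.

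On mm10, annotated by GENCODE M21, the 7 genes lay on 6 chromosomes, and none lay in a cluster with another of them. Mir155 (ENSMUSG00000065397.1) is at chr16:84714140-84714204 on the plus strand, in an exon of its noncoding host transcript Mir155hg. Mir150 (ENSMUSG00000065495.1), at chr7:45121757-45121821 on the plus strand, overlapped no other annotated gene. Mir342 (ENSMUSG00000065436.1), at chr12:108658620-108658718 on the plus strand, lies in an intron of Evl, which encodes an actin regulator of the Ena/VASP family. Mir223 (ENSMUSG00000076066.1), at chrX:96242817-96242926 on the plus strand, lies in an exon of the noncoding gene F630028O10Rik. Mir146 (ENSMUSG00000065601.1) is at chr11:43374397-43374461 on the minus strand, with the nearest annotated gene 11021 bases away. Mir146b (ENSMUSG00000070127.2), at chr19:46342762-46342870 on the plus strand, lies in an intron of Mfsd13a.

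Mir142 (ENSMUSG00000105196.1) is at chr11:87756864-87756927 on the plus strand, in an intron of its noncoding host gene Mir142hg. It lies wholly within Mir142b, a microRNA gene annotated on the minus strand. Its hairpin is shown with both mature arms in capitals, because this overlap decides how its reads were counted.
Mir142 hairpin: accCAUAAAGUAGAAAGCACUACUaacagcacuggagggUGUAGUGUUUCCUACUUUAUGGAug
Counted on its own strand, Mir142 had 157 reads in replicate 1 and 409 in replicate 2, while Mir142b had 0 in both. When strand was ignored, Mir142 had 0 reads in both libraries, since a read that overlaps 2 genes is then assigned to neither. The other 6 genes had the same count with and without strand, and none of the 7 had a read on the opposite strand.

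The reads assigned to microRNA genes numbered 638779 in replicate 1 and 2272132 in replicate 2, so replicate 2 gives the narrower intervals. These were 17.2% and 16.1% of all reads. Reads that matched several places, 75.2% in replicate 1 and 74.4% in replicate 2, were assigned to no gene. Levels are given as counts per 1000000 assigned counts (CPM). Because an assigned read spans a mature strand of near-uniform length, CPM was compared between genes without scaling to gene length. How evenly the library preparation captured different sequences was not tested. Ratios between genes are therefore ratios of reads, and their intervals leave this out. Of 10 striated muscle genes checked against the tissue label, 9 were detected. Mir206, a microRNA of skeletal muscle, had 20325 CPM in replicate 1 and 48078 CPM in replicate 2, and Mir499, in a slow myosin gene, had 784 and 1819 CPM. Genes encoding miR-1 or miR-133 had low counts, with Mir1a-2 at 265 CPM on average and Mir1a-1, Mir133a-1, Mir133a-2 and Mir133b between 7.12 and 16.9 CPM. Reads that match several of these copies are not in the counts, so the values do not measure miR-1 or miR-133.

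Together the 7 leukocyte genes made up 0.289% of assigned counts in replicate 1 and 0.358% in replicate 2 (0.324% ± 0.0481, SD, n = 2). Their sum was 2895 CPM in replicate 1 (exact Clopper-Pearson 95% interval 2764 to 3029) and 3575.5 CPM in replicate 2 (3498 to 3654). In bulk tissue, fewer cells of a type and less RNA per cell cannot be told apart, so these sums are not cell numbers. A gene was called detected at 2 CPM or more in both libraries, which 13.8% of all 2202 genes were, and 6 of the 7 leukocyte genes met it. The exception was Mir146b, which a floor of 1 CPM would include. In replicate 1 the floor of 2 CPM lies below the 4.70 CPM that a count of 0 allows.

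**Figure D1:**
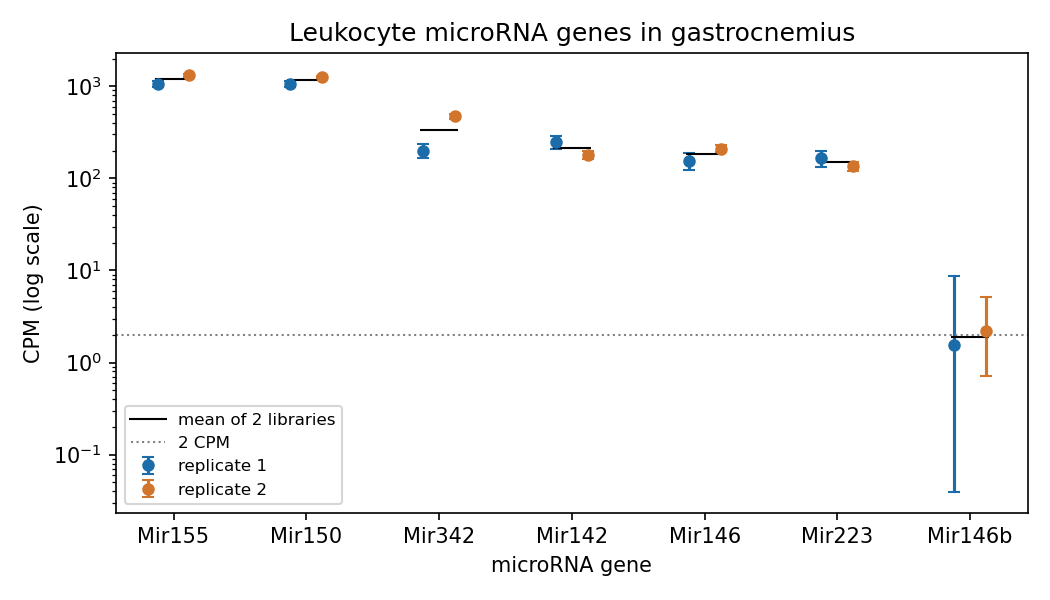
Level of each leukocyte microRNA gene in counts per 1000000 assigned counts (CPM, log axis) in replicate 1 (blue) and replicate 2 (orange), with exact 95% intervals of counting error; black lines are the means of the 2 libraries and the dotted line marks 2 CPM. Mir155 and Mir150 lay between 1065 and 1314 CPM in both libraries, 4 genes lay between 136 and 473 CPM, and Mir146b lay near 2 CPM.

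Mir155, which is raised upon immune cell activation, had 1065 CPM in replicate 1 and 1314 CPM in replicate 2 (1189 ± 176, SD, n = 2). Its rank was 57 in replicate 1 and 52 in replicate 2 among all 2202 genes, on counts without reads that match several places. Mir150, the lymphocyte microRNA that represses Myb, had 1068 CPM in replicate 1 and 1260 CPM in replicate 2 (1164 ± 136). Mir155 and Mir150 were not separable in level: their order differed between the libraries, and the ratio of Mir155 to Mir150 was 0.997 in replicate 1 (exact 95% interval 0.895 to 1.11) and 1.04 in replicate 2 (0.991 to 1.10). Both stood well above the other 5 genes and gave 73.7% of the group's counts in replicate 1 (71.6 to 75.7%) and 72.0% in replicate 2 (71.0 to 72.9%).

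Mir342, the gene in the Evl intron, followed by mean level, with 197 CPM in replicate 1 and 473 CPM in replicate 2 (335 ± 195, SD, n = 2). It varied most of the 7 genes, with a coefficient of variation of 58.2% against 11.7 to 23.8% for the other 6. Its share of the group's counts was 6.81% in replicate 1 (exact 95% interval 5.71 to 8.06%) and 13.2% in replicate 2 (12.5 to 14.0%). Mir342 was below Mir142 in replicate 1 and above it in replicate 2, and their SDs overlapped, so its place in the order rests on replicate 2.

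Mir142, the gene common to blood cell lineages, had 246 CPM in replicate 1 and 180 CPM in replicate 2 (213 ± 46.5, SD, n = 2). Mir223, the myeloid gene, had 164 CPM in replicate 1 and 136 CPM in replicate 2 (150 ± 20.1). The ratio of Mir223 to Mir142 was 0.669 in replicate 1 (exact 95% interval 0.517 to 0.862) and 0.756 in replicate 2 (0.650 to 0.878). Mir223 was thus the lower of the pair in both libraries, at ratios whose intervals overlapped between the libraries. Although Mir142 is the broadest of these genes in blood cells, Mir155 had 4.33 times its reads in replicate 1 (3.64 to 5.19) and 7.30 times in replicate 2 (6.58 to 8.11). Mir150, the lymphoid gene, had 6.50 times the reads of Mir223 in replicate 1 (5.28 to 8.06) and 9.26 times in replicate 2 (8.23 to 10.4).

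Mir146, whose product dampens Toll-like receptor signalling by targeting Traf6 and Irak1, had 153 CPM in replicate 1 and 211 CPM in replicate 2 (182 ± 40.6, SD, n = 2). In replicate 1 Mir146 and Mir223 were not separable, with 98 and 105 reads, while in replicate 2 Mir146 had 1.55 times the reads of Mir223 (exact 95% interval 1.34 to 1.79). The SDs of Mir342 and Mir142, of Mir142 and Mir146, and of Mir146 and Mir223 overlapped. The full order within this middle group of 4 is thus not fixed by these libraries. In both libraries, though, Mir342 was above Mir146 and Mir223, and Mir142 was above Mir223.

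Mir146b, which yields the same 5p seed as Mir146, had 1 read in replicate 1 and 5 reads in replicate 2. These are 1.57 CPM (exact 95% interval 0.0396 to 8.72) and 2.20 CPM (0.715 to 5.14). Mir146 had 98 times the reads of Mir146b in replicate 1 (17.2 to 3910) and 95.8 times in replicate 2 (40.8 to 296). How many mismatches the alignment allowed is not given in the sources used here, and the effect of the 17 shared bases on these counts was not tested.

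**Figure D2:**
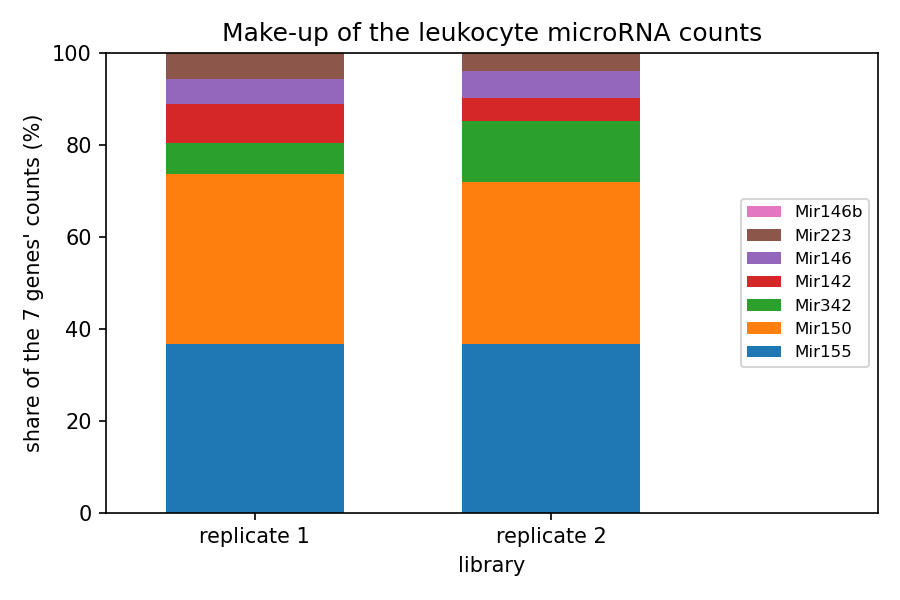
Share of each gene in the summed counts of the 7 leukocyte genes (%), stacked to 100% for replicate 1 and replicate 2. Mir155 and Mir150 filled 73.7% of replicate 1 and 72.0% of replicate 2; Mir342 was 6.81% and 13.2%; Mir146b, at 0.0541% and 0.0615%, is too small to be seen.

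The libraries were compared gene by gene, as replicate 1 over replicate 2, to see whether the leukocyte genes moved as a block. They moved in both directions: 4 were lower in replicate 1, 1 was higher, and 1 did not pass. The test was an exact two-sided binomial test of the 2 counts, with Benjamini-Hochberg adjustment over the 311 genes with 10 or more reads in all, which Mir146b did not reach. It sets 1 library against 1 and counting error alone, so it says nothing of mice or conditions. Of all 311 genes 40.5% passed, 23.2% lower and 17.4% higher in replicate 1, and among the 105 with a mean of 100 to 2000 CPM, 62 passed (59.0%). The 5 of 6 leukocyte genes that passed are read against those shares. Their median absolute log2 ratio was 0.38, against 0.39 over all tested genes and 0.32 over the 105 of like level.

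Mir342 had the widest difference of the 6, at 0.417-fold in replicate 1 relative to replicate 2 (95% interval of counting error 0.344 to 0.502; exact binomial test, adjusted p = 4.22e-24). Mir146 was at 0.728-fold (0.579 to 0.906; exact binomial test, adjusted p = 0.0108) and Mir155 at 0.810-fold (0.744 to 0.881; exact binomial test, adjusted p = 2.64e-06). Mir150 was at 0.848-fold (0.779 to 0.922; exact binomial test, adjusted p = 0.000355). Mir142 was the gene that was higher in replicate 1, at 1.37-fold (1.13 to 1.65; exact binomial test, adjusted p = 0.00369). Mir223 had a ratio of 1.21, with an interval of 0.959 to 1.51 that spans no difference (exact binomial test, adjusted p = 0.187).

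With reads taken as independent, the 5 differences exceeded counting error. Those of Mir155, Mir150, Mir142 and Mir146 lay within the spread that other genes showed between the same libraries. Mir342 lay towards the edge of that spread, with a log2 ratio of -1.26. Of the 105 genes with a mean of 100 to 2000 CPM, 7 differed by over 2-fold, Mir342 among them. Over all 311 tested genes, 49 did. With the exact test of edgeR, run at a common dispersion that corresponds to a coefficient of variation of 27.9% over the 311 genes, none of the 6 passed, and Mir342 alone had an unadjusted p under 0.05 (0.0361, adjusted p = 0.643). That test called 0.643% of all genes, 2 of 311, and 20 had an unadjusted p under 0.05. Its spread is estimated from the difference it tests, so it places a gene among the others and does not measure the mice.

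**Figure D3:**
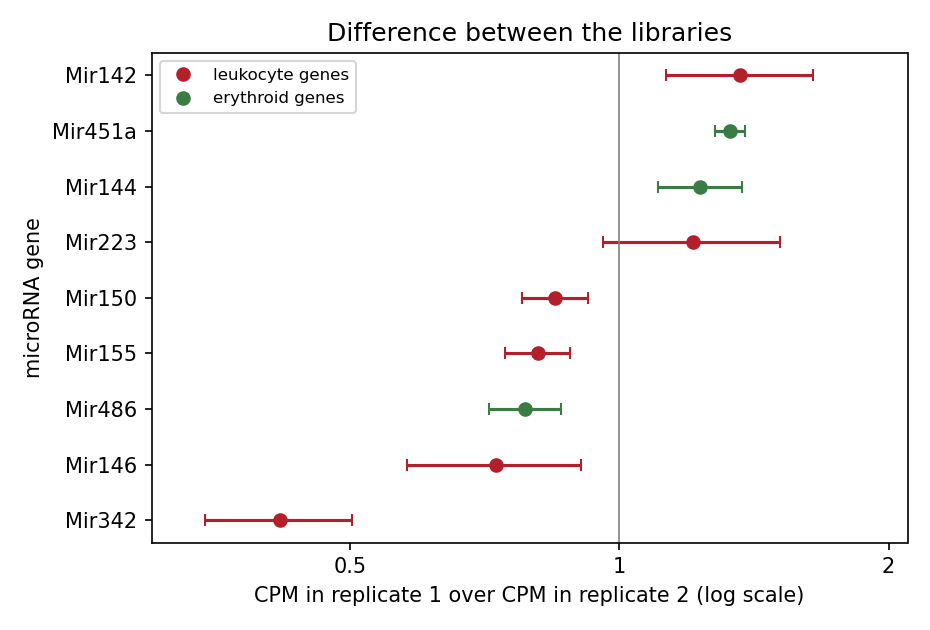
CPM in replicate 1 over CPM in replicate 2 (log axis) for the 6 tested leukocyte genes (red) and 3 erythroid genes (green), with exact 95% intervals of counting error; the grey line marks no difference. Mir142 (1.37), Mir451a (1.33), Mir144 (1.23) and Mir223 (1.21) lie to the right of the line, and Mir150, Mir155, Mir486, Mir146 and Mir342 to the left.

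Red blood cell microRNAs reach muscle with the blood, and they were set beside the leukocyte genes within each library, where the ratio of 2 genes does not depend on the library total. Mir451a and Mir144 are made from 1 transcript in erythroid cells. Mir451a had 5465 CPM in replicate 1 and 4110 CPM in replicate 2, 1.33-fold higher in replicate 1 (1.28 to 1.38), and Mir144 was 1.23-fold higher there (1.10 to 1.37). The ratios of Mir142 and Mir223 to Mir451a overlapped between the libraries. Mir451a had 22.2 times the reads of Mir142 in replicate 1 (18.9 to 26.3) and 22.8 times in replicate 2 (20.7 to 25.3). It had 33.2 times the reads of Mir223 in replicate 1 (27.4 to 40.8) and 30.2 times in replicate 2 (27.0 to 34.0).

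Mir150 differed from that pattern, with Mir451a at 5.12 times its reads in replicate 1 (4.71 to 5.56) and 3.26 times in replicate 2 (3.13 to 3.40), intervals that do not meet. Mir155, Mir146 and Mir342 also lay on the other side of no difference from Mir451a. Genes of other cell types in muscle lay on both sides. Of 9 tested striated muscle genes, 3 were lower in replicate 1, none was higher and 6 did not pass by the exact binomial test, with a median log2 ratio of -0.04, the same as over all tested genes. The 3 were Mir206 (0.423-fold), Mir499 (0.431-fold) and Mir208b (0.688-fold), and among the 6 were Mir133b at 1.84 and Mir133a-2 at 1.94. Mir126a, the endothelial microRNA of Egfl7, was at 0.626-fold. Mir143 and Mir145a, of vascular smooth muscle, lay on the side of Mir451a, at 1.51-fold and 1.39-fold. A ratio near that of Mir451a was thus not confined to genes of blood cells. Of all 311 tested genes, 54 were higher and 72 lower in replicate 1 by the exact binomial test. With 2 libraries the part of blood, vessel or fibre content in these ratios was not tested. Mir486, which lies in the ankyrin gene Ank1 and is made in both red cells and muscle, was at 0.785-fold (0.715 to 0.860).

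**Figure D4:**
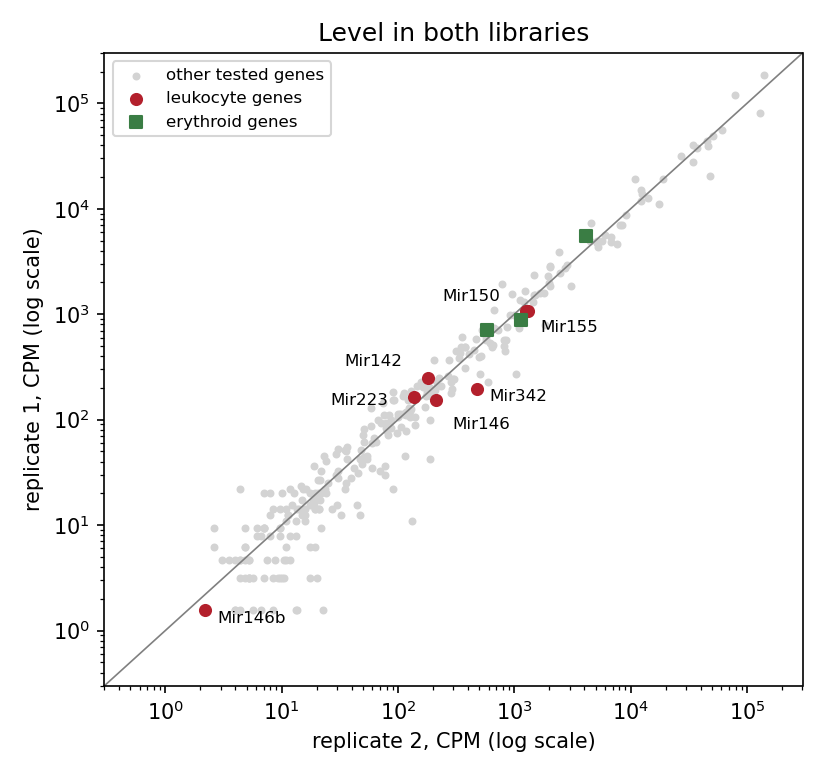
CPM in replicate 1 (vertical) against replicate 2 (horizontal), both on log axes, for tested genes with reads in both libraries (grey), the 7 leukocyte genes (red, named) and 3 erythroid genes (green squares); the line marks equal levels. Mir342 lies farthest from the line among the leukocyte genes with over 100 CPM, and Mir142 and Mir223 lie just above it.

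For each detected member, the gene most alike in both libraries was sought among the other 297 detected genes, by distance in log2 CPM over the 2 libraries. Mir155 and Mir150 had the same nearest gene, Mir128-1, at 1025 CPM in replicate 1 and 1339 CPM in replicate 2, 0.06 and 0.11 log2 units away. Mir146 was nearest to Mir154, of the imprinted Dlk1-Dio3 region, at 147 and 206 CPM in replicates 1 and 2, a distance of 0.07. Mir342 was the most isolated of the 6, with Mir351 as its nearest gene at a distance of 0.38 (227 CPM in replicate 1 and 589 CPM in replicate 2). Mir142 was nearest to Mir671 (0.22) and Mir223 to Mir542 (0.18).

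A list of 20 other microRNA genes with known roles in immune cells, most of them also active in many other tissues, gave the level of less restricted genes. Its sum was 10757 CPM in replicate 1 and 11590 CPM in replicate 2 (11173 ± 590 CPM, SD, n = 2), against 3235 ± 481 CPM for the 7 leukocyte genes. The sums cover 20 and 7 genes, and reads that match several gene copies are in neither. Of the 20, 17 were detected. Of its 17 tested genes, 5 were lower in replicate 1, 4 were higher and 8 did not pass, against 40.5% passing among all 311 tested genes. Its leading genes were Mir99b (2463 ± 875 CPM), Mir125a (1986 ± 5.87 CPM) and Mirlet7e (1494 ± 21.1 CPM), which lie in 1 cluster. Mir15a, which represses Bcl2, followed at 1443 ± 309 CPM, and each of these 4 had a higher mean than Mir155.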

How the data were processed

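MicroRNA sequencing of mouse gastrocnemius gave 1 table per library, with 2 libraries in 1 group. The authors deposited raw counts of reads per microRNA gene on mm10 with GENCODE M21, per the text beside each table. No source used here names the aligner or the counter, and the tables have no column names. From the values, the third column was read as counts on the strand of the gene and used. All 2202 identifiers matched GENCODE M21. Rows that name no gene were left out of totals: unmapped reads were 5.97% and 6.93%, no-feature reads 1.62% and 2.48%, and multi-mapping reads 75.2% and 74.4% in replicates 1 and 2. CAST alleles were not analysed here.

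CPM is counts per 1000000 assigned counts. Exact 95% Clopper-Pearson intervals, like the binomial test, cover counting error alone and treat each read as independent. PCR copies of a molecule are not independent and the labels name no molecular identifiers, so the intervals can be too narrow. A count of 0 allows up to 3 counts, which is 4.70 CPM for replicate 1 and 1.32 CPM for replicate 2. With 1 library against 1, an exact binomial test with Benjamini-Hochberg adjustment at 0.05 took the place of a model with replicates. It was checked on counts simulated with no spread between mice, so that check does not bear on such spread. A prior count of 0.5 entered log2 ratios. Named genes were the members, the nearest gene to each, up to 4 leading genes of a compared list, and genes sharing a seed. Mir206, Mir499, Mir208b, Mir1a-2, Mir126a, Mir143 and Mir145a are leading genes of the muscle, endothelial and smooth muscle lists. Mir3964 and Mir142b were named for a shared run and an overlap, and Mir1a-1, Mir133a-1, Mir133a-2 and Mir133b after their values were seen. The members and lists were chosen with earlier results of these data known. Alternatives were unstranded counts, TMM and DESeq2 scaling, the 3 most abundant genes left out of the totals, other floors and prior counts, no filter, the exact test of edgeR, and each library left out. Software was Python 3.11.15, scipy 1.17.1, R 4.3.3, edgeR 4.0.16 and DESeq2 1.42.0.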

Additional observations from a re-analysis of the deposited data

Results flagged for a closer look

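Mir142b, annotated opposite to Mir142, had signal in a count column that the comparisons did not use. On the strand opposite to Mir142b there were 157 reads in replicate 1 and 409 in replicate 2, above the 3 that a count of 0 allows. These equal the counts of Mir142 itself, which lies at that place on that strand, and Mir142b had 0 reads on its own strand in both libraries.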

How the results depend on the processing

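The mean of the summed leukocyte level, 3235 CPM, was 4316 CPM with unstranded counts, where Mir142 fell to 0 and the library totals were smaller, and 5113 CPM with the 3 most abundant genes left out of the totals, a change of denominator. With TMM or DESeq2 scaling it moved by less than 1 SD, and from 1 library alone it lay between 2895 and 3575.5 CPM. The count of detected genes was 6 or 7 under all 8 alternatives run. It was 7 with a floor of 1 CPM, with replicate 2 alone, and with the 3 most abundant genes left out. The 6 detected with unstranded counts were a different set: Mir142, at 0 CPM, was lost, and Mir146b, at a mean of 2.69 CPM, was gained. Of 6 tested leukocyte genes, 5 passed the binomial test and 0 passed the exact test of edgeR at a common dispersion (1 with an unadjusted p under 0.05). With unstranded counts, where Mir142 had no reads and so no ratio, 4 passed the binomial test. No leukocyte gene with a ratio changed direction under the alternatives run. Mir146 missed the threshold with the 3 most abundant genes left out (exact binomial test, adjusted p = 0.0528). Over all genes the split was 54 higher and 72 lower in replicate 1. It was 64 higher and 57 lower with TMM scaling, and 69 higher and 53 lower with the 3 genes left out, so the overall balance depends on the scaling, while Mir155, Mir150 and Mir342 were lower under each. No paired analysis was possible because there is 1 group. A test with 1 library left out cannot be had from 2 libraries. Mir146b, at 1 and 5 reads, is limited by depth.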
